A study of Mus musculus with 10 samples.

Results

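Selenoproteins are proteins that carry selenocysteine (Sec), the selenium analogue of cysteine. The group described here holds the 10 genes Selenop, Selenow, Selenof, Selenok, Selenom, Selenos, Selenot, Selenon, Selenoh and Msrb1, which are selenoprotein genes outside the glutathione peroxidase (Gpx) and thioredoxin reductase (Txnrd) families. They were taken by name, matched to the Ensembl gene identifiers of the count table, and all 10 were found among its 47729 genes. All 10 also passed the filter on low counts, with which 16362 genes were tested. RNA was measured in the retinal pigment epithelium (RPE) at postnatal day 40, in 5 wild-type mice of the CD1 stock with 2 libraries each. The GFP control eye had received AAV Best1 GFP alone. The Nrf2 eye of the same mouse had received AAV Best1 Nrf2 in addition to AAV Best1 GFP. AAV is an adeno-associated viral vector, and both vectors used the human Best1 promoter, which is active in the RPE. The Nrf2 sequence was the human cDNA. Both groups therefore carried GFP, while the Nrf2 eyes also received a larger amount of vector. RNA came from the eyecup after removal of the retina and was amplified, so it can hold RNA of cells other than the RPE. The labels mention more than 1 sequencing run, but all 10 library titles carry the same date and the same code. The titles do not separate the libraries by run, so runs could not be compared.

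Sec is written in the messenger RNA by UGA, a codon that otherwise ends translation. The ribosome reads it as Sec with the help of an RNA hairpin in the message, a dedicated tRNA and binding proteins. Because Sec is a strong reducing residue, many selenoproteins are redox enzymes, and several sit in the endoplasmic reticulum (ER). Nrf2 activates transcription of antioxidant genes, among them selenoprotein genes such as Txnrd1. Selenium reaches many tissues as the secreted Selenop, which cells take up by receptors of the LDL receptor family. In the RPE, which works in high oxygen and digests photoreceptor outer segments, such enzymes form part of the defence against peroxides.

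The Sec codons are shown first, since they define the group and separate its members by type. The lines below give coding sequence of the GENCODE M21 transcripts (GRCm38, mm10), 5′ to 3′, with up to 15 bases on either side of the Sec codon, which is in capitals. In Selenow, Selenom, Selenot and Selenoh, a cysteine codon lies 3 codons before the Sec codon, the arrangement of a thioredoxin-like active site with Sec in place of a cysteine. In Selenok and Selenos, both ER membrane proteins, the Sec codon is followed by 2 codons and 1 codon, at the very end of the protein. The last line is the end of the Selenop coding sequence, 87 bases from Sec codon 6 to Sec codon 10 and on to the last codon.
Selenow (codon 13 of 88, Sec codon at chr7:15920464-15920466, minus strand): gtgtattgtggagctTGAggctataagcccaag
Selenom (codon 48 of 145, chr11:3516273-3516275, plus strand): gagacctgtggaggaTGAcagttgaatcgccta
Selenot (codon 49 of 195, chr3:58585238-58585240, plus strand): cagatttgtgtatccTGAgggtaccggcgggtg
Selenoh (codon 38 of 123, chr2:84670381-84670383, minus strand): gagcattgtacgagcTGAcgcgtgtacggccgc
Selenok (codon 92 of 94, chr14:29973440-29973442, plus strand): ccaatggctggtggaTGAggaagg
Selenos (codon 189 of 190, chr7:66088844-66088846, plus strand): ccatcatctggcggcTGAaac
Selenop, first Sec (codon 59 of 380, chr15:3274848-3274850, plus strand): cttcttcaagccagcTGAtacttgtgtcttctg
Selenop, Sec 6 to 10 (codons 352 to 380, chr15:3279621-3279707, plus strand): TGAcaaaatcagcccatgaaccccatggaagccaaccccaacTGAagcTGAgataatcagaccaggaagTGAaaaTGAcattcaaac

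Selenop had 10 annotated Sec codons and each of the other 9 genes had 1. Its first Sec codon is followed by a cysteine codon 3 codons later, and its other Sec codons lie between codons 259 and 377 of 380. In Selenof a cysteine codon lies 2 codons before the Sec codon, which is codon 93 of 162. In Selenon, the longest member with 557 codons, the cysteine codon is the one directly before the Sec codon at 428. In Msrb1, with Sec at codon 95 of 116, no cysteine codon lies within 3 codons on either side.

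**Figure D1:**
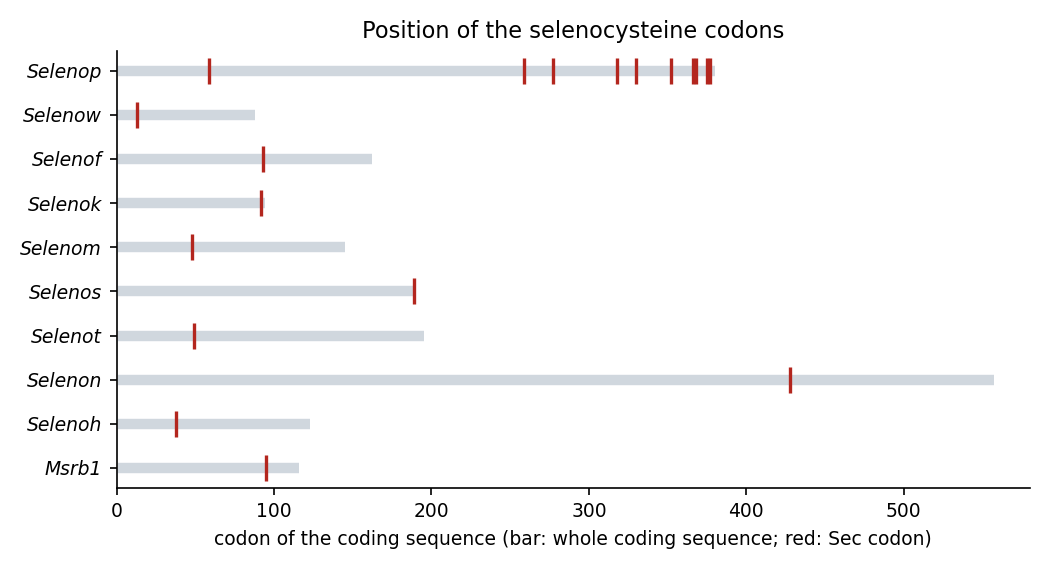
Position of each annotated Sec codon (red line) along the coding sequence (grey bar, in codons) of the 10 genes. Selenop has 10 Sec codons, of which 9 lie at or after codon 259, while the Sec codons of Selenok and Selenos lie 2 codons and 1 codon before the end.

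The libraries held 12298404 to 27310638 counts, and the counting floor of 3 counts was 0.110 to 0.244 CPM (counts scaled to the library total). Such floors leave out every error but that of counting, because amplification copies molecules. All 12 RPE markers had counts in every library, although Best1 itself was low, at 0.766 CPM on average in control and 1.14 CPM in Nrf2 eyes. The summed level of these markers ran from 22682 to 43400 CPM in control and from 12354 to 30447 CPM in Nrf2 eyes. The sum was lower in the Nrf2 eye of all 5 mice. Of the 12, 5 passed the test described below as lower, namely Rpe65, Rlbp1, Lrat, Rgr and Otx2. Rgr averaged 8876 CPM in control and 1426 CPM in Nrf2 eyes. The others did not pass, among them Ttr, with averages of 11543 and 11751 CPM. Markers of other cells were also present. Those of cones, and those of melanocytes and Schwann cells, each summed lower in the Nrf2 eye of all 5 mice. The 14 rod markers summed to 166 to 22440 CPM in control and 316 to 8842 CPM in Nrf2 eyes, with the highest value of each group in mouse 2. The 15 macrophage and microglia markers summed to 178 to 309 CPM in control and 481 to 2502 CPM in Nrf2 eyes, higher in the Nrf2 eye of all 5 mice, and Csf1r alone made up 71.4% to 84.3% of the control sums. Nfe2l2, the mouse gene of Nrf2, had 88.7 ± 12.7 CPM in control and 353 ± 53.6 CPM in Nrf2 eyes (SD, n = 5 each), and reads of the human vector sequence could be counted there.

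The levels of the members were compared per length, as TPM, which are counts per kilobase of merged exons scaled to the same total in each library. The most abundant member per length was Selenow, a small cytosolic protein known for its high level in muscle and brain, with 904 ± 290 TPM in control eyes (SD, n = 5). This level lay above 99.3% of the tested genes. The next 3, all ER proteins, followed close together. Selenos, a membrane protein of ER-associated degradation, had 242 ± 16.9 TPM, Selenok, a membrane protein linked to protein palmitoylation, had 229.9 ± 21.2 TPM, and Selenof, which binds the glycoprotein folding sensor UGGT, had 194 ± 22.7 TPM. The ranges of neighbours among these 3 genes overlapped. Selenos was above Selenok in 4 of 5 control eyes, and Selenok above Selenof in 5 of 5.

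The next members were Selenom, an ER protein related to Selenof, with 106 ± 32.0 TPM and Selenop with 70.8 ± 6.40 TPM in control eyes (SD, n = 5 each). Their ranges overlapped, with Selenom higher in 4 of 5 eyes. Selenon, an ER membrane protein tied to calcium handling in muscle, had 46.7 ± 10.9 TPM and Selenoh, a nuclear protein, had 43.6 ± 5.51 TPM, again with overlapping ranges. The lowest levels were those of Selenot, a thioredoxin-like protein of the ER membrane, with 19.4 ± 3.84 TPM, and Msrb1, which reduces oxidized methionine, with 13.6 ± 0.486 TPM. These 2 ranges did not overlap. Even Msrb1 lay above 54.1% of the tested genes. In Nrf2 eyes, the mean of Selenop moved ahead of that of Selenom, with 129 ± 35.3 TPM against 99.8 ± 22.7 TPM. The mean of Selenok moved ahead of that of Selenos, with 233 ± 12.5 TPM against 212 ± 15.4 TPM. The ranges overlapped in both pairs. The other 6 genes kept their place. Merged exons include little-used ones, which lowers TPM for a gene such as Selenof with 5819 bases of them, so the order is approximate.

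**Figure D2:**
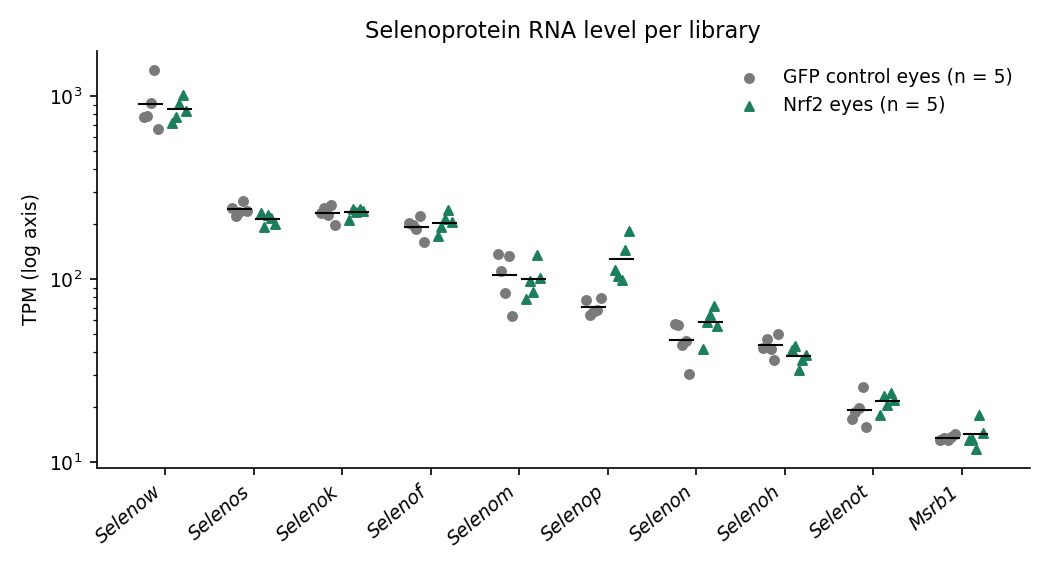
Level of each selenoprotein gene in TPM on a log axis, ordered by the mean in control eyes; each point is 1 library and the black lines are group means. The groups overlap for 9 genes, while all 5 Nrf2 eyes lie above all 5 control eyes for Selenop.

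Differences between the eyes of a mouse were then tested to ask which of these genes differed in eyes given Nrf2. Selenop passed the test and rose, while 9 of the 10 genes did not pass. Over all tested genes, 6.33% had an adjusted p-value under 0.05 (edgeR's quasi-likelihood test with the mouse as a block, Benjamini-Hochberg adjustment over all genes), so 1 called gene among 10 is near the background. Of all tested genes, 3.6% were called higher, as 1 member was, and 2.73% lower, as 0 members were. The median log2 fold change of the 10 members was 0.07, against -0.01 over all tested genes. The log2 fold changes of the other 9 lay between -0.16 (Selenoh) and 0.36 (Selenon), which are folds of 0.896 to 1.29, with adjusted p-values of 0.302 to 0.971. Unadjusted p-values were under 0.05 for 1 of the 10 genes. In bulk RNA of this kind, a change in the number of cells of a type and a change in RNA per cell cannot be told apart.

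Selenop (ENSMUSG00000064373, chromosome 15, 3268547 to 3280508, plus strand) encodes the secreted selenium carrier with the 10 Sec codons shown above. Control eyes of mice 1 to 5 held 75.6, 63.9, 68.5, 71.7 and 80.1 CPM of it. The Nrf2 eyes of the same mice held 119.5, 109, 105, 151 and 195 CPM. Every Nrf2 eye lay above every control eye, as was the case for 3.87% of all tested genes, while 0 members and 2.25% of all tested genes lay wholly lower. The within-mouse ratio, taken after TMM scaling, which corrects library totals for differences in composition, was 1.66, 1.69, 1.55, 2.01 and 2.29 in mice 1 to 5, the highest of the 10 members in each mouse. The group means were 72.0 ± 6.26 CPM and 136 ± 37.8 CPM (SD, n = 5 each). The log2 fold change was 0.87 (SE 0.10, edgeR adjusted p = 0.00483), a fold of 1.82, with a rise in 5 of 5 mice. Of all tested genes, 9.23% were higher in 5 of 5 mice and 20.2% had the same direction in 5 of 5. Among the members this was the case for Selenop alone. Whether Selenop differed from the other members in its response was not tested. Without mouse 2, whose eyes held the most rod RNA, its log2 fold change was 0.93 (adjusted p = 0.0267). Exons of Ccdc152 on the opposite strand share 439 bases with Selenop, and Ccdc152 had at most 5 counts in any library.

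Selenop is also expressed by macrophages, whose markers rose in the same eyes. The summed level of the 15 macrophage and microglia markers was 295, 207, 283, 309 and 178 CPM in the control eyes of mice 1 to 5 and 1143, 481, 836, 1410 and 2502 CPM in their Nrf2 eyes. Among Nrf2 eyes, both Selenop and these markers were highest in mouse 5 and next highest in mouse 4, while mice 2 and 3 stood in opposite order. Among control eyes, mouse 5 had the highest Selenop and the lowest marker sum, with or without Csf1r. Of the 15 markers, 14 had counts in every library, and 12 of the 14 tested passed, all higher. Csf1r did not pass, with 196 CPM in control and 142 CPM in Nrf2 eyes on average (edgeR adjusted p = 0.301). Without Csf1r, which was left out after its values were seen, the other 14 markers summed to 84.4, 55.7, 44.6, 62.6 and 42.95 CPM in the control eyes and 1016.5, 419.7, 670.1, 1275 and 2279.9 CPM in the Nrf2 eyes. The ratio of the Nrf2 to the control eye was larger than in the full sum in every mouse. The part of these cells in the Selenop result was not tested.

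Cd68 and Rnase4 were the genes whose log2 CPM followed Selenop most closely over the 10 libraries, among 10229 tested genes with a mean of at least 10 CPM. Their Pearson's r with Selenop was 0.97 each, which describes libraries that share mice and treatment. Cd68 is a macrophage lysosome protein and one of the 15 markers, and Rnase4 is a secreted ribonuclease. Their log2 fold changes were 2.10 and 1.29, each larger than that of Selenop.

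**Figure D3:**
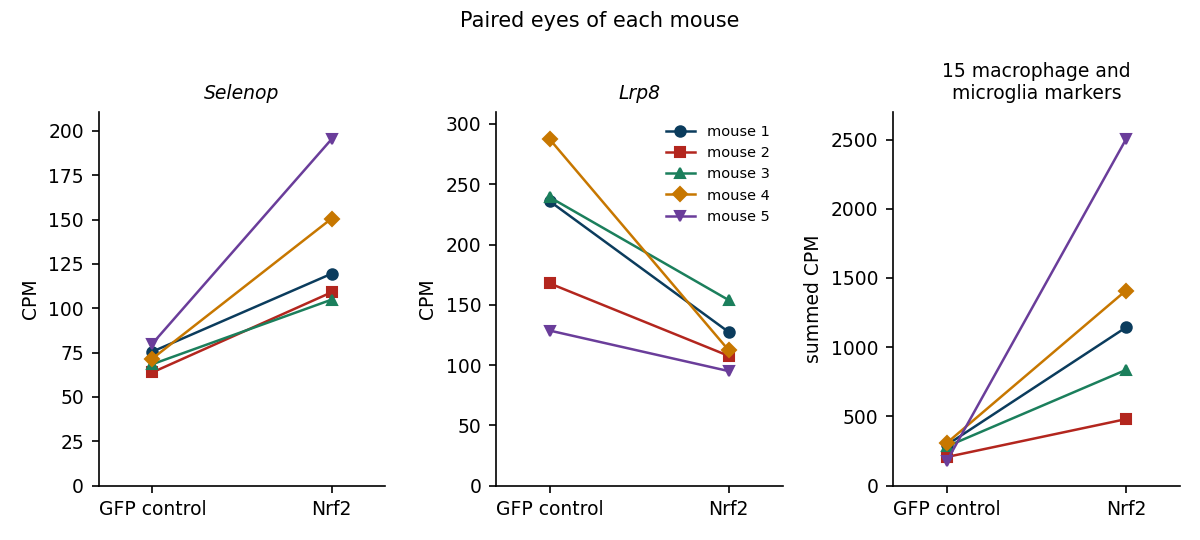
Selenop and its receptor gene Lrp8 in CPM, and the summed CPM of 15 macrophage and microglia markers, with a line joining the eyes of each of the 5 mice. Selenop and the markers were higher and Lrp8 was lower in the Nrf2 eye of every mouse.

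The receptors of Selenop were examined next. Lrp8, the apolipoprotein E receptor that takes up Selenop in brain and testis, passed the test and fell. It had 236, 168, 239, 287 and 129 CPM in the control eyes of mice 1 to 5 and 127, 108, 154, 112 and 95.0 CPM in their Nrf2 eyes. The Nrf2 eye was lower in 5 of 5 mice, though the groups overlapped, since the control eye of mouse 5 lay below the Nrf2 eye of mouse 3. Its log2 fold change was -0.81 (SE 0.16, edgeR adjusted p = 0.0191), with means of 212 ± 63.0 and 119 ± 22.6 CPM (SD, n = 5 each). The summed RPE markers were also lower in every Nrf2 eye, though only 5 of the 12 were called lower. Their part in the Lrp8 value was not tested. Lrp2 (megalin), the receptor of kidney tubules, had 40.7 ± 20.3 CPM in control and 41.8 ± 2.20 CPM in Nrf2 eyes (log2 fold change 0.15, adjusted p = 0.824).

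Among the thioredoxin-like members with the cysteine codon 3 codons before Sec, none of the 4 passed the test. Selenow (ENSMUSG00000041571, chromosome 7, 15917208 to 15922402) had 196, 201, 243, 382 and 175 CPM for mice 1 to 5 in control eyes. It had 197, 208, 248, 273 and 229 CPM in their Nrf2 eyes. The groups overlapped widely, and the control eye of mouse 4 held the highest value of all 10 libraries. The within-mouse ratio was 0.682 in mouse 4 and between 1.02 and 1.23 in the others, and the log2 fold change was -0.02 (SE 0.14, edgeR adjusted p = 0.971). Its sign turned without mouse 4, to 0.15 (adjusted p = 0.600).

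Selenom had the widest spread of within-mouse ratios among the 10 genes on the log2 scale. Its level in control eyes was 70.3, 57.9, 45.2, 74.1 and 33.6 CPM in mice 1 to 5, and in Nrf2 eyes it was 43.2, 53.3, 46.5, 73.8 and 56.6 CPM. Its ratio was lowest in mouse 1 (0.648) and highest in mouse 5 (1.58), while mice 2 to 4 had ratios of 0.912 to 1.04. The log2 fold change was -0.02 (SE 0.21), and the data do not set a direction for it. Selenot ran from 19.2 to 32.7 CPM in control and from 23.3 to 30.0 CPM in Nrf2 eyes, with a log2 fold change of 0.20 (SE 0.11) and a higher Nrf2 eye in 4 of 5 mice. Selenoh ran from 15.2 to 20.4 CPM in control and from 13.4 to 17.9 CPM in Nrf2 eyes. The log2 fold change of Selenoh was -0.16 (SE 0.10), and it was higher in the Nrf2 eye of 1 mouse.

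The other ER members also overlapped between the groups. Selenof, the member with the most counts, ran from 332 to 478 CPM in control and from 377 to 505 CPM in Nrf2 eyes, with a log2 fold change of 0.11 (SE 0.07). Selenok ran from 135 to 178 CPM in control and from 150.1 to 168 CPM in Nrf2 eyes, with a log2 fold change of 0.06 (SE 0.06) and within-mouse ratios of 0.898 to 1.17. Its 3 named pseudogenes in the table had at most 10 counts in any library. Selenos ran from 115 to 147 CPM in control and from 105 to 127 CPM in Nrf2 eyes. It was lower in the Nrf2 eye of 4 of 5 mice, with a log2 fold change of -0.15 (SE 0.09), which was -0.05 without mouse 4.

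Selenon (ENSMUSG00000050989, chromosome 4, 134537892 to 134552166) had the second largest log2 fold change of the group and did not pass. Its control eyes had 71.5, 71.2, 57.6, 62.1 and 39.2 CPM in mice 1 to 5, and its Nrf2 eyes had 56.2, 77.6, 85.8, 94.0 and 75.6 CPM. The Nrf2 eye was higher in mice 2 to 5 and lower in mouse 1, and the groups overlapped. The within-mouse ratio ran from 0.828 to 1.81, and the log2 fold change was 0.36 (SE 0.20, edgeR adjusted p = 0.302). Leaving out each mouse in turn, it ran from 0.24 to 0.56. Msrb1, the methionine sulfoxide reductase, ran from 5.76 to 6.48 CPM in control and from 5.53 to 8.38 CPM in Nrf2 eyes, with 86 to 177 counts a library. The log2 fold change of Msrb1 was 0.08 (SE 0.07).

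**Figure D4:**
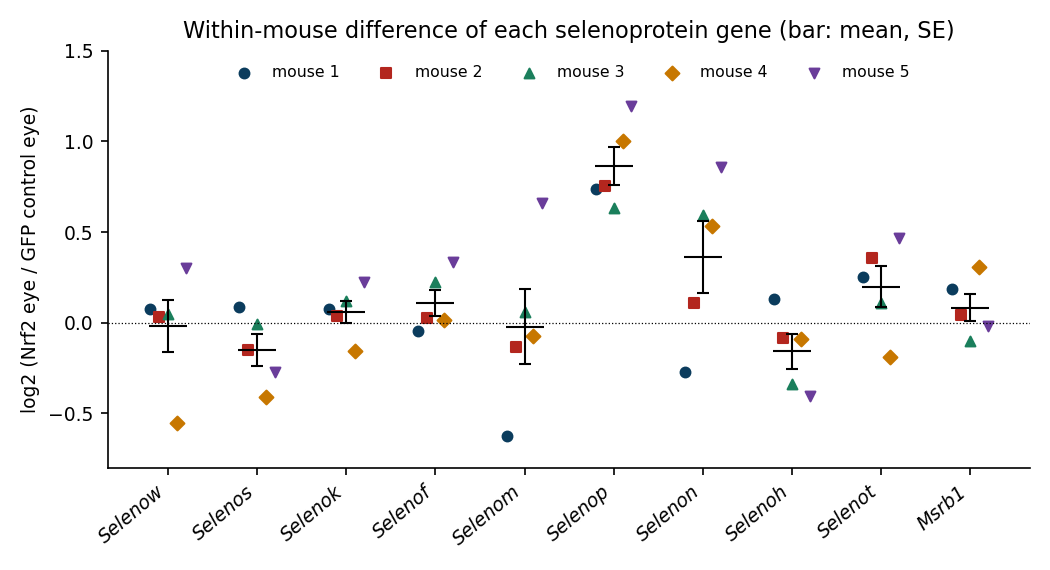
Log2 ratio of the Nrf2 eye to the GFP control eye of each mouse for the 10 genes, with the mean and its SE (n = 5 mice) in black. All 5 ratios of Selenop lie above 0, and mouse 5 has the highest ratio in 7 of the 10 genes.

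The spread was shared between members. In control eyes, 6 of the 10 genes had their highest CPM in mouse 4 and 6 had their lowest in mouse 5. The summed level of the 10 genes was 1447 CPM in the control eye of mouse 4 and 967 CPM in that of mouse 5, against 1121 to 1144 CPM in the other control eyes. In Nrf2 eyes the sum ran from 1116 to 1433 CPM. The within-mouse ratio was highest in mouse 5 for 7 genes and lowest in mouse 4 for 4 genes, so that the median ratio of the 10 genes was 1.25 in mouse 5, 0.945 in mouse 4 and 1.02 to 1.06 in the others. The variation between control eyes was smallest for Msrb1, with a coefficient of variation of 5.15%, and Selenop, with 8.70%. It was largest for Selenow and Selenom, with 34.8% and 30.2%. With 86 to 177 counts a library, counting error alone is larger than the value of Msrb1, so its rank is uncertain.

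Of 13 selenoprotein genes of the other families and types, 12 were tested, 2 passed as higher and 1 as lower, beside the 6.33% of all tested genes that passed. Of the 12, 10 had a positive log2 fold change and 5 were higher in 5 of 5 mice, against 7969 and 1510 of the 16362 tested genes. Dio1, a deiodinase of thyroid hormone, had at most 20 counts in any library and was not tested. Txnrd1, the cytosolic thioredoxin reductase, had the largest fold (log2 fold change 4.10, SE 0.09). Gpx4, which removes lipid peroxides, was higher in 5 of 5 mice by 1.21 on the log2 scale (SE 0.16, edgeR adjusted p = 0.00734). Selenoi, an ethanolamine phosphotransferase of phospholipid synthesis, fell, with within-mouse ratios of 0.627 to 0.791 and a mean log2 ratio of -0.47 (SE 0.06, edgeR adjusted p = 0.0284). The median log2 fold change of the 12 genes was 0.36. The 9 that did not pass ran from -0.11 (Txnrd3) to 1.05 (Gpx2). They include Gpx1, a cytosolic peroxidase, with 0.51 (SE 0.15, edgeR adjusted p = 0.0979), and Gpx3, a secreted peroxidase, with 0.83 (SE 0.48, edgeR adjusted p = 0.301), both higher in 5 of 5 mice, as was Txnrd2, with 0.34 (SE 0.11, edgeR adjusted p = 0.302).

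The genes that make and insert Sec are shared by all selenoproteins. None of the 9 tested genes passed in either direction, and their median log2 fold change was -0.13. The lowest adjusted p-value was that of Sephs2, which makes the selenium donor and is itself a selenoprotein, at 0.409 (58.6 ± 10.9 CPM in control and 50.2 ± 4.47 CPM in Nrf2 eyes, SD, n = 5 each). Scly, the lyase that recycles selenium from Sec, was lower in all 5 Nrf2 eyes, by a log2 ratio of -0.18 (SE 0.07, edgeR adjusted p = 0.495). Trnau1ap, which binds the Sec tRNA, had a value of -0.18 (SE 0.11) and Sepsecs, the Sec synthase, of -0.13 (SE 0.16), neither past the threshold. Secisbp2, which binds the hairpin in the message, had a log2 fold change of 0.04 (SE 0.22).

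**Figure D5:**
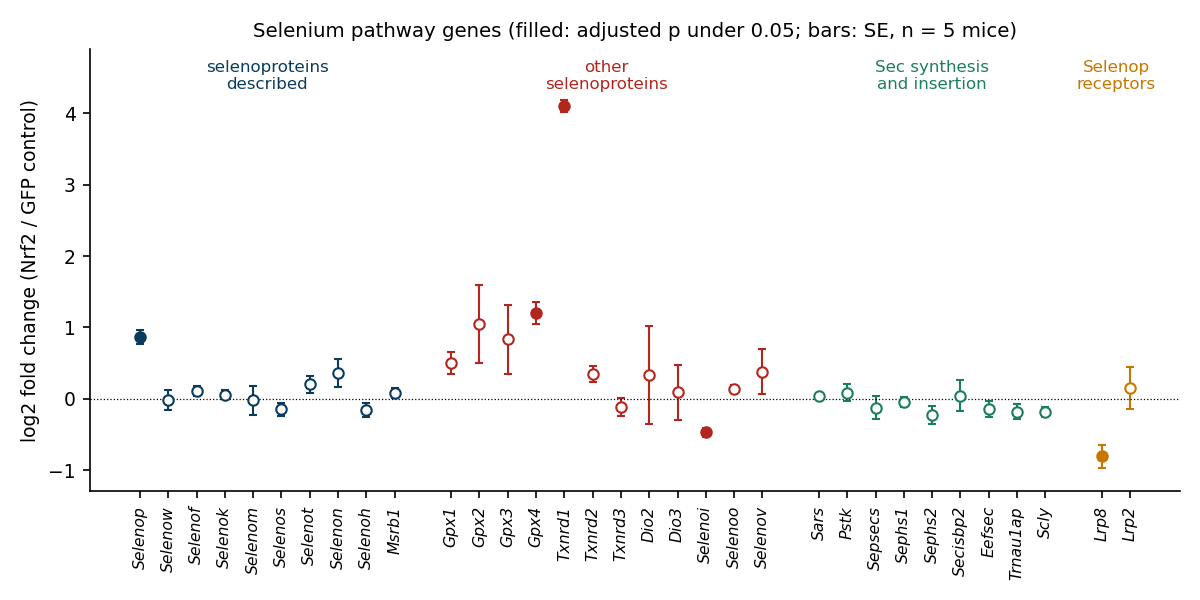
Log2 fold change between Nrf2 and GFP control eyes with its SE (n = 5 mice) for the 10 members, 12 other selenoprotein genes, 9 genes of Sec synthesis and insertion and 2 Selenop receptor genes; filled points have an adjusted p-value under 0.05. Filled are Selenop, Gpx4 and Txnrd1 above 0 and Selenoi and Lrp8 below 0.

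The relatives and partners of single members were counted in the same way. The 3 methionine sulfoxide reductases beside Msrb1, namely Msra, Msrb2 and Msrb3, had log2 fold changes of -0.12, -0.36 and -0.12, and none passed. Of 11 partner genes of Selenos and Selenok, namely 10 of ER-associated degradation and Zdhhc6, the palmitoyltransferase that Selenok binds, 0 passed with edgeR in either direction, and their median log2 fold change was 0.02. The smallest adjusted p-value was that of Edem1, a lectin that hands glycoproteins to degradation (0.70, SE 0.20, adjusted p = 0.0568). By comparison, 8 of 8 well-known Nrf2 target genes, chosen as a reference, passed and were higher, with a median log2 fold change of 3.81. They were Gclc, Gclm, Gsr, Hmox1, Nqo1, Slc7a11, Srxn1 and Txnrd1, with Hmox1 at 6.12 and Nqo1 at 1.77.

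The promoters of the members were searched for the core of the antioxidant response element, the letters TGACNNNGC on either strand, since this is the motif that Nrf2 binds with a small MAF partner. RefSeq promoters of GRCm38.p6, from 250 bases before to 50 bases after the start of the gene, were found for all 10 members. The motif was in that of Selenok (TGACTGGGC, beginning 44 bases before the start) and in none of the other 9. Counted by gene in the same way, it was in 14% of all 27025 genes with a window of that length, and counted by window in 12.4% of all 32851 windows. None of the 3 Selenop windows held it, which says only that these letters are not in these windows. Of the reference targets, 5 had a promoter in the table and 3 of these held the motif.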

How the data were processed

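RNA from the eyecups of 5 CD1 mice was sequenced in 10 libraries, 5 per group, with both eyes of each mouse. The authors aligned reads with STAR to mm10 with Ensembl release 91 transcripts and used featureCounts to count them by gene. They also ran Salmon (0.8.2 per the labels). The deposited table holds unnormalized counts, whole numbers for each Ensembl identifier. The counter behind this table, the strand setting and the filters are not given in the sources used here, so genes that overlap on opposite strands are uncertain. Of the 47729 genes, 15729 had no count, and 47310 (99.12%) had an entry in GENCODE M21 (GRCm38), from which symbols, positions and exon lengths were taken.

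Counts were filtered with filterByExpr, normalized with TMM and tested with edgeR 4.0.16 (R 4.3.3) by the quasi-likelihood test, blocking on the mouse, with Benjamini-Hochberg adjustment over all 16362 tested genes, with a threshold of 0.05. The SE is that of the 5 within-mouse differences of TMM-scaled log2 CPM (prior count 2), from which within-mouse ratios also come. CPM are per library total. The block follows the study's paired design and the animal number in the labels. As a check, the deviations from group means correlated across genes at 0.19 to 0.71 between the eyes of a mouse. Between eyes of different mice the range was -0.42 to 0.28, with a median of -0.08, so the 2 ranges overlapped. Libraries compared in pairs gave a chi-square of at least 38.2 per degree of freedom, so none was a copy of another. The edgeR step was tested on simulated data. DESeq2 1.42.0, other filters and scalings, thinning, marker covariates and leaving out each mouse were tried as alternatives.

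The members and lists were chosen with earlier results of these data known. Named are all 10 members, of each list other than the cell type markers every gene that passed or, where none did, up to 4 with the smallest adjusted p-values, and for each called member the 3 genes with the highest Pearson's r. Of these 3 genes, 1 is not reported here. Genes of the lists named outside this rule, apart from Zdhhc6, were chosen after their values were seen. They are Best1, Csf1r, Dio1, Dnajb9, Gpx1, Gpx2, Gpx3, Hspa5, Lrat, Lrp2, Otx2, Rgr, Rlbp1, Rpe65, Secisbp2, Sepsecs, Ttr, Txnrd2, Txnrd3 and Uggt1. Zdhhc6 was named to describe its list. No columns of other samples were present. Each Sec codon was taken from the transcript with the most annotated Sec codons.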

Additional observations from a re-analysis of the deposited data

Results flagged for a closer look

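Of 20 groups of 5 values checked (10 genes in each of the groups), 1 held a library far from the others, and chance gives about 1. It was Selenon in the control eye of mouse 5, which lay at 5.33 on the log2 CPM scale while the remaining control eyes spanned 5.91 to 6.14. The gap was 0.713 of the group's range, just above the critical value of 0.71. Its within-mouse ratio of 1.81 was the highest for this gene, and without mouse 5 the log2 fold change of Selenon was 0.24.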

How the results depend on the processing

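Selenop was called in all 13 alternatives, with a log2 fold change of 0.78 to 0.98 and adjusted p-values of 3.2e-08 to 0.0332, and 1 of the 10 members was called in each. In the fit with no replicate block, 755 genes were called in place of 1036, and Selenop had a log2 fold change of 0.89 (adjusted p = 0.00894). The count of called genes was 1823 with DESeq2, which adjusted over 19309 genes, and 505 with the rod covariate, where the cause was not tested. Leaving out a mouse gave 584 (without mouse 2) to 857 genes, with 613 without mouse 4 and 683 without mouse 5, from fewer samples. Of 130 single-gene values, 122 kept their direction and side of the threshold and 8 turned their sign, none of them called. These were Selenom, at -0.19 to 0.16 leaving out a mouse, and Selenow, at -0.10 to 0.15 leaving out a mouse and 0.14 with the rod covariate. None of the other 7 uncalled members changed sign when a mouse was left out, but each moved by over 1.5 times in at least 1 case, with ranges of 0.05 to 0.18 (Selenof), 0.02 to 0.15 (Selenok), -0.17 to -0.05 (Selenos), 0.13 to 0.33 (Selenot), 0.24 to 0.56 (Selenon), -0.20 to -0.06 (Selenoh) and 0.06 to 0.19 (Msrb1). Depth was no limit on detecting the 10 genes, which had at least 86 counts in every library, but 5 mice limit the precision of small differences.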

Other observations

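Over all tested genes, 6.33% passed and 3.6% were called higher. Of 11 genes of protein folding in the ER, where most of the members described above reside, 1 passed with edgeR and rose, near that background. This was Sdf2l1, a partner of the ER chaperones, with 24.5 ± 4.43 CPM in control and 38.1 ± 5.83 CPM in Nrf2 eyes (SD, n = 5 each), and its rise, seen in 5 of 5 mice, had a log2 ratio of 0.63 with an SE of 0.06 (adjusted p = 0.0107). Hspa5, the main ER chaperone and the common marker of ER stress, had a log2 ratio of 0.10 (SE 0.05, adjusted p = 0.723), and Dnajb9, its co-chaperone, had -0.17 (SE 0.12, adjusted p = 0.533). The median of the 11 genes was 0.12. Uggt1, the partner of Selenof, had -0.02 (SE 0.11, adjusted p = 0.963).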
